A study of Homo sapiens with 24 samples.

Results

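The mitosis genes described here are 40 genes whose products drive the passage of a cell through division. They were chosen by name and matched by Ensembl identifier and symbol in tables that list 58051 gene identifiers, and all 40 were found. They comprise 7 genes of mitotic entry, 5 of the Aurora kinases and their partners, 5 of the centromere and kinetochore, 5 of the spindle assembly checkpoint, 12 kinesins and spindle proteins, 4 of chromatid separation and 2 of chromosome structure. RNA was sequenced from HT29, HCT116 and SW480 cells, which are established human colorectal cancer (CRC) cell lines. For each line, 2 clones that kept the *CTNNB1* alleles of the line (WT) were compared with 2 clones in which CRISPR/Cas9 had removed an exon of both *CTNNB1* alleles (KO). *CTNNB1* encodes β-CATENIN, the transcriptional mediator of WNT signaling, which HT29 and SW480 cells activate by mutation of *APC* and HCT116 cells by mutation of *CTNNB1* itself. The paper describes 2 independent RNA-seq rounds, which it counts as biological replicates. The 2 libraries of each clone are labelled A and B, and the letter is read here as the round. This gave 4 libraries per line and genotype and 24 libraries in all. The clones were WT 11, WT 40, KO 28 and KO 38 of HT29, WT 4, WT 6, KO 44 and KO 47 of HCT116, and WT 4, WT 5, KO 17 and KO 21 of SW480. Libraries carry the clone number and the round (KO 28A, for example). Where a clone is given a pair of values, round A comes first. Every clone grew from a single cell. Within 1 clone, a property of the clone and an effect of its genotype cannot be told apart. The p-values of KO against WT, and of KO effects between lines, measure the spread between libraries of only 2 clones per group. Those between 2 clones of a genotype measure only the spread between the libraries of a clone. A fit of 1 KO clone against WT holds 2 libraries of that clone and does not measure the spread between KO clones.

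Most mitosis genes are transcribed in a wave that builds up through G2 and peaks when chromosomes condense. In G0 and G1 the DREAM complex holds their promoters silent, and in late S phase and G2 the MYB-MuvB complex and the transcription factor FOXM1 turn them on. A short element called the cell cycle genes homology region (CHR) anchors the MuvB core at many of these promoters, often next to CCAAT boxes bound by NF-Y. Because the transcripts are abundant mainly in dividing cells, their level in bulk RNA follows the share of cells in G2 and mitosis. In bulk RNA, fewer dividing cells and less mitotic RNA per cell cannot be told apart.

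To show what these genes share at their start sites, the CHR letters TTTGAA were searched on both strands of the RefSeq promoters (GRCh38.p14), each of which spans 250 bases before and 50 bases after the gene's start. Promoters were matched for 33 members. *AURKA*, *BIRC5*, *BUB3*, *FOXM1*, *TPX2*, *TTK* and *UBE2C* had no entry. TTTGAA was found in 23 of 33 member promoters (69.7%) and in 15.4% of 27305 promoters. CCAAT, the core of the box bound by NF-Y, was found on either strand in 27 of 33 (81.8%) and in 35.7% of all promoters, and both motifs were found in 60.6% of member promoters and in 6.08% of all. The motifs can share at most 1 base, and a match describes the window only. Of 24 matched promoters of G1/S genes, which are expressed earlier in the cycle, 1 held TTTGAA (4.17%). The windows below show 1 match each of 8 chosen members, and other called members such as *CDK1* and *NUF2* also hold the motif. Each is 30 bases long, runs 5′ to 3′ on the gene's strand, and shows TTTGAA in capitals.
*CCNB2*, chr15:59105099-59105128, plus strand: ggcgcaagcgacgcggtaTTTGAAtcctgg
*CDC20*, chr1:43358898-43358927, plus strand: cggttgcgacggttggatTTTGAAggagcc
*CENPA*, chr2:26786020-26786049, plus strand: agtgggcggagcgagcgaTTTGAAcgcgag
*PLK1*, chr16:23678842-23678871, plus strand: aacgttcccagcgccgcgTTTGAAttcggg
*HMMR*, chr5:163460592-163460621, plus strand: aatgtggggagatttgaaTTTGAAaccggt
*PRC1*, chr15:90994544-90994573, minus strand: cttcgccccgtggcgcggTTTGAAattttg
*KIF18A*, chr11:28108155-28108184, minus strand: tgaggaaagtggcttgggTTTGAAtattgt
*MKI67*, chr10:128126441-128126470, minus strand: tttgaatcttcgttttcgTTTGAAttgggc
In these chosen windows the capitals begin between 10 and 65 bases before the RefSeq start, and in *CCNB2*, *PLK1* and *MKI67* alike they begin 29 bases before it. Matches not shown include positions −194 in *TOP2A*, −178 in *CDC20* and 25 in *MAD2L1* relative to the start, and some lie on the opposite strand. The median log2 difference between KO and WT was −0.57 over the 23 members with the motif and −0.31 over the 10 without it in HT29. Without library HT29 KO 38B, which stood apart as described below, the HT29 medians were −0.44 and −0.45. The same medians were 0.04 and 0.11 for HCT116 and −0.42 and −0.49 for SW480. These medians describe the members and were not tested.

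The libraries held 22297049 to 29068378 reads on genes. The values are normalized counts, i.e. reads divided by 1 size factor per library. All 40 members passed the filter, which asked for 10 or more in 4 or more libraries per line, since a member had at least 402 reads in every library. *CTNNB1* itself read 256.5 to 337.1 in HT29 KO libraries against 5883 to 6113 in WT, 186.7 to 255 against 10510 to 12800 in HCT116, and 839 to 1312 against 43110 to 50940 in SW480, as labelled. The 8 epithelial markers summed to at least 131000 in every library, although *CDX2* was below 10 in the HT29 WT libraries, *VIL1* in HCT116 and *LGALS4* in HCT116 and SW480. Of 4 leucocyte markers, *PTPRC* and *CD3E* stayed below 10 in each library and *LYZ* was high in HT29 alone. The 5 matched fibroblast and endothelial markers summed to 12.2 to 22.5 in HT29 WT and 110 to 1210 in HT29 KO libraries, with *COL1A2* and *DCN* below 10 in all of these and *LUM* below 10 in the WT libraries. Their part in the HT29 results was not tested.

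Library HT29 KO 38B stood apart by transcript length. Over all HT29 genes tested, the median deviation of 2205 genes with transcripts over 6000 bases from their HT29 mean was −0.47, and that of 3499 genes with transcripts under 1500 bases was 0.65, a difference of −1.12 log2 units. In the other 23 libraries this difference lay between −0.36 and 0.38. The medians of the members followed it. In KO 38B the 7 members with transcripts over 6000 bases lay at a median of −0.72 and the 8 under 2000 bases at 0.38, a difference of −1.10, whereas the other 23 libraries ranged from −0.66 to 0.58. Short *AURKB* and *PTTG1* were the highest and long *MKI67* and *ESPL1* the lowest of the 8 HT29 libraries there. Not every member did so. Long *BUB3*, with a transcript of 7703 bases, was also the highest there, and short *CDC20*, with 1649 bases, lay below all WT libraries. HCT116 WT 4A, HCT116 KO 44A and HT29 WT 11B had the same direction to a lesser degree, with differences of −0.36, −0.33 and −0.31 over all genes. The part of transcript length in the results below was not tested, and the HT29 differences of single genes are followed in brackets by their value without KO 38B.

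**Figure D1:**
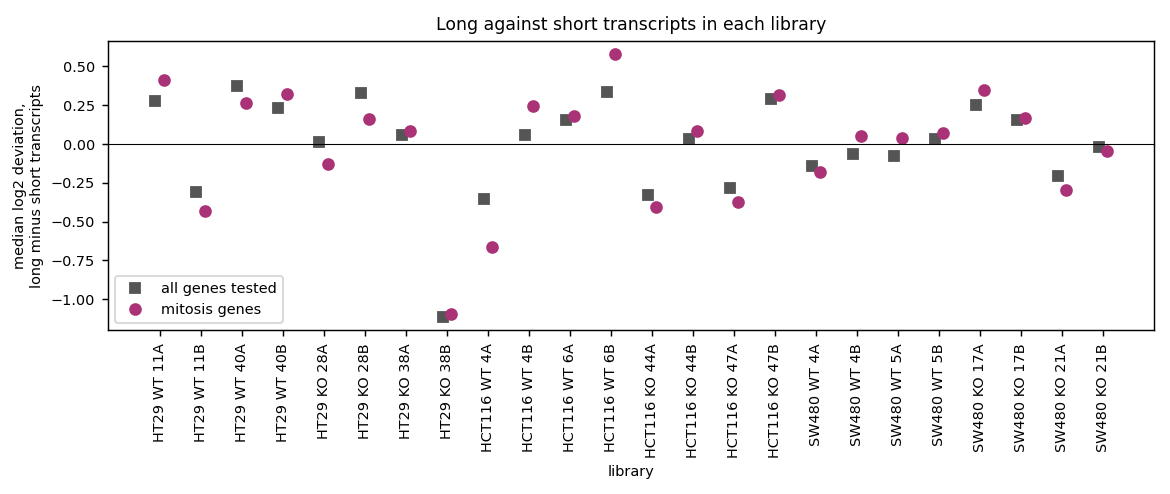
Median log2 deviation of long-transcript genes minus that of short-transcript genes in each of the 24 libraries (x axis), for all genes tested in the line (squares, over 6000 against under 1500 bases) and for the mitosis genes (circles, 7 members over 6000 against 8 under 2000 bases). HT29 KO 38B sits at −1.12 and −1.10, and no other library goes below −0.36 for all genes.

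In WT cells all 40 members were expressed in the 3 lines, and their levels differed between lines. The ratio of the highest to the lowest WT mean of the 3 lines ranged from 1.11 for *PLK1* to 3.49 for *CENPA*, with a median of 1.73 over the 40 members. 25 members were highest in SW480, 11 in HCT116 and 4 in HT29. Per kilobase of transcript, *UBE2C*, which loads ubiquitin for the anaphase-promoting complex, was among the highest, with mean WT normalized counts per kilobase of 7864 for HT29, 4951 for HCT116 and 8541 for SW480. The long motor *KIF14* was among the lowest, with 174.9, 233.9 and 345.3 per kilobase. The 40 members together took 0.637 to 0.819% of the reads in HT29 WT libraries and 0.445 to 0.587% in HT29 KO libraries, so that these ranges did not overlap. They took 0.651 to 0.783% and 0.674 to 0.801% in HCT116 WT and KO, and 0.854 to 1.09% and 0.541 to 1.02% in SW480.

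To find out which mitosis genes depended on *CTNNB1*, KO and WT libraries were compared gene by gene within each line with limma on log2(value + 1), and p-values were adjusted over all genes tested by Benjamini-Hochberg. Differences are KO minus WT on this scale, with the standard error. In HT29, 34 of 40 members lay below 0 with a median of −0.47 (all genes 0.03). 1 member fell at an adjusted p under 0.05, where 0.476% of all 14921 genes tested were called lower, and none rose (2.08% of all genes). Without adjustment 16 members had p under 0.05, where 16.2% of all genes did. Without KO 38B all 40 members lay below 0 with a median of −0.43. In HCT116 the median was 0.05, 1 member fell (5.93% of all 15404 genes) and 3 rose (8.05%). In SW480, 38 members lay below 0 with a median of −0.40 (all genes −0.0042), 12 fell, a share of 30% where 22.1% of 16325 genes fell, and none rose (26.1% of all genes). No member passed both an adjusted p under 0.05 and an absolute log2 difference over 1 in any line, where 0.402%, 1.89% and 6.76% of all genes in HT29, HCT116 and SW480 were lower by that rule. The SW480 share of 30% lay not far above that of all genes. Leaving out 1 library at a time gave 0 or 1 member in HT29, where only the fit without KO 38B kept a call (0.479% of all genes). It gave 1 rise in HCT116 without KO 44A, WT 4A or WT 4B, and in SW480 29 falls without KO 17B and 7 without KO 21B, WT 4A or WT 5A. For these fits of HCT116 and SW480 the shares of all genes are not given here.

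**Figure D2:**
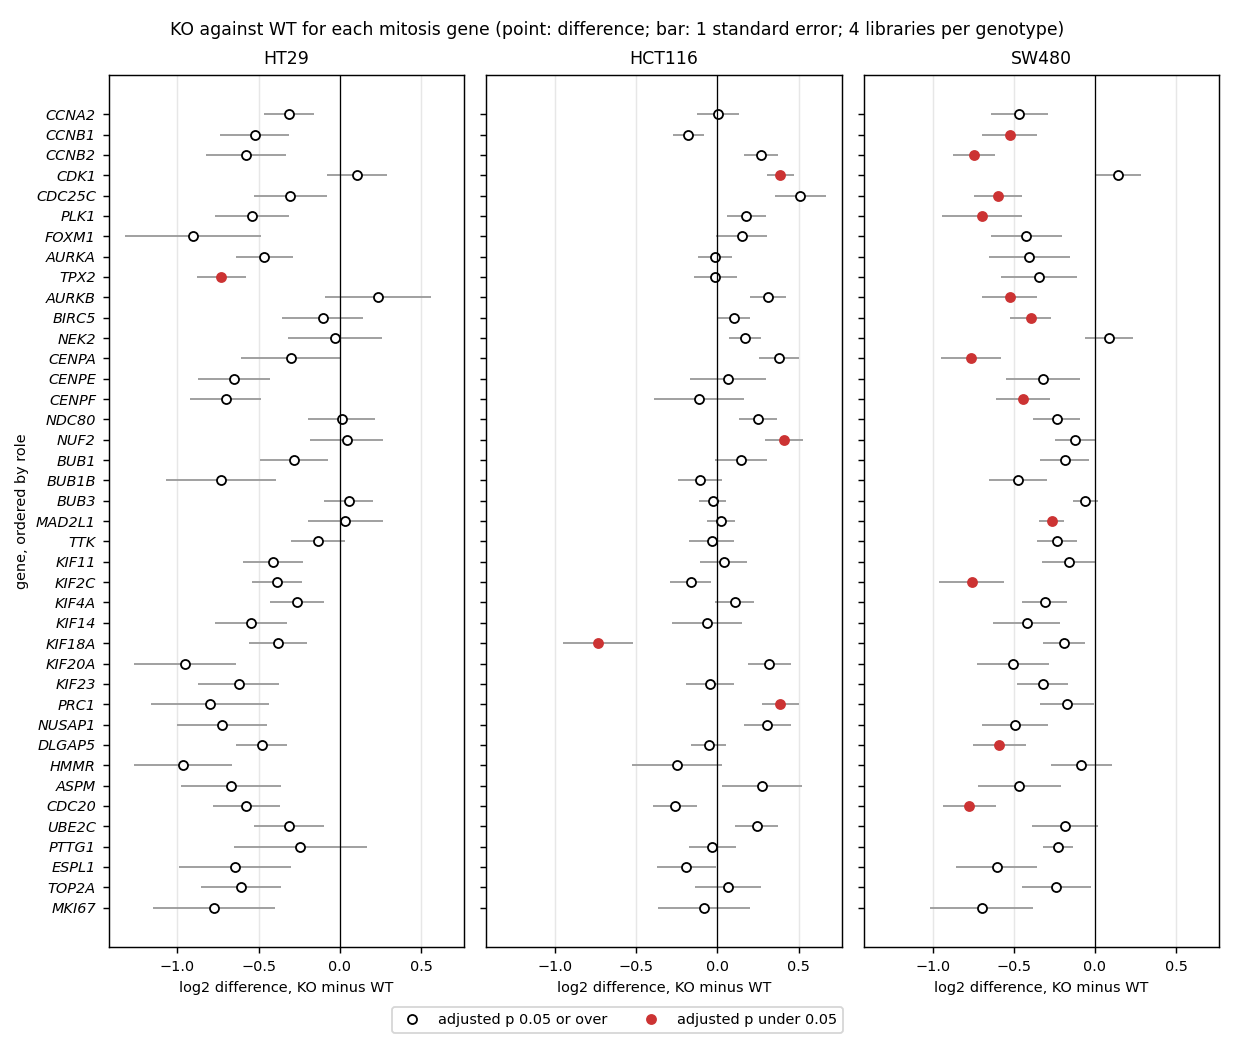
Log2 difference between KO and WT (x axis) for each of the 40 mitosis genes (y axis, in order of role) in HT29, HCT116 and SW480, with bars of 1 standard error and filled points for adjusted p under 0.05. Most points of HT29 and SW480 lie left of 0 with 1 and 12 filled, and those of HCT116 scatter around 0 with 4 filled.

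When libraries were compared without a model, 11 members (27.5%) were lower in all 4 HT29 KO libraries than in all 4 WT libraries, against 4.71% of all genes. Without KO 38B 12 were, against 6.76%. The 11 were *AURKA*, *CCNB1*, *CENPE*, *CENPF*, *DLGAP5*, *FOXM1*, *HMMR*, *KIF18A*, *KIF20A*, *KIF2C* and *TPX2*. None was so in HCT116 (9.61% of all genes), where 5 members were higher in all KO libraries (10.9% of all genes), namely *CDC25C*, *CDK1*, *CENPA*, *NUF2* and *PRC1*. In SW480, 3 members (7.5%) were lower in all 4 KO libraries, against 20.9% of all genes. Thus, by count alone, SW480 had the most called members and HT29 the most members without overlap. The shares of all genes differed between the lines too, with 22.1% called lower in SW480 and 0.476% in HT29. The KO clones of a line did not behave alike.

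**Figure D3:**
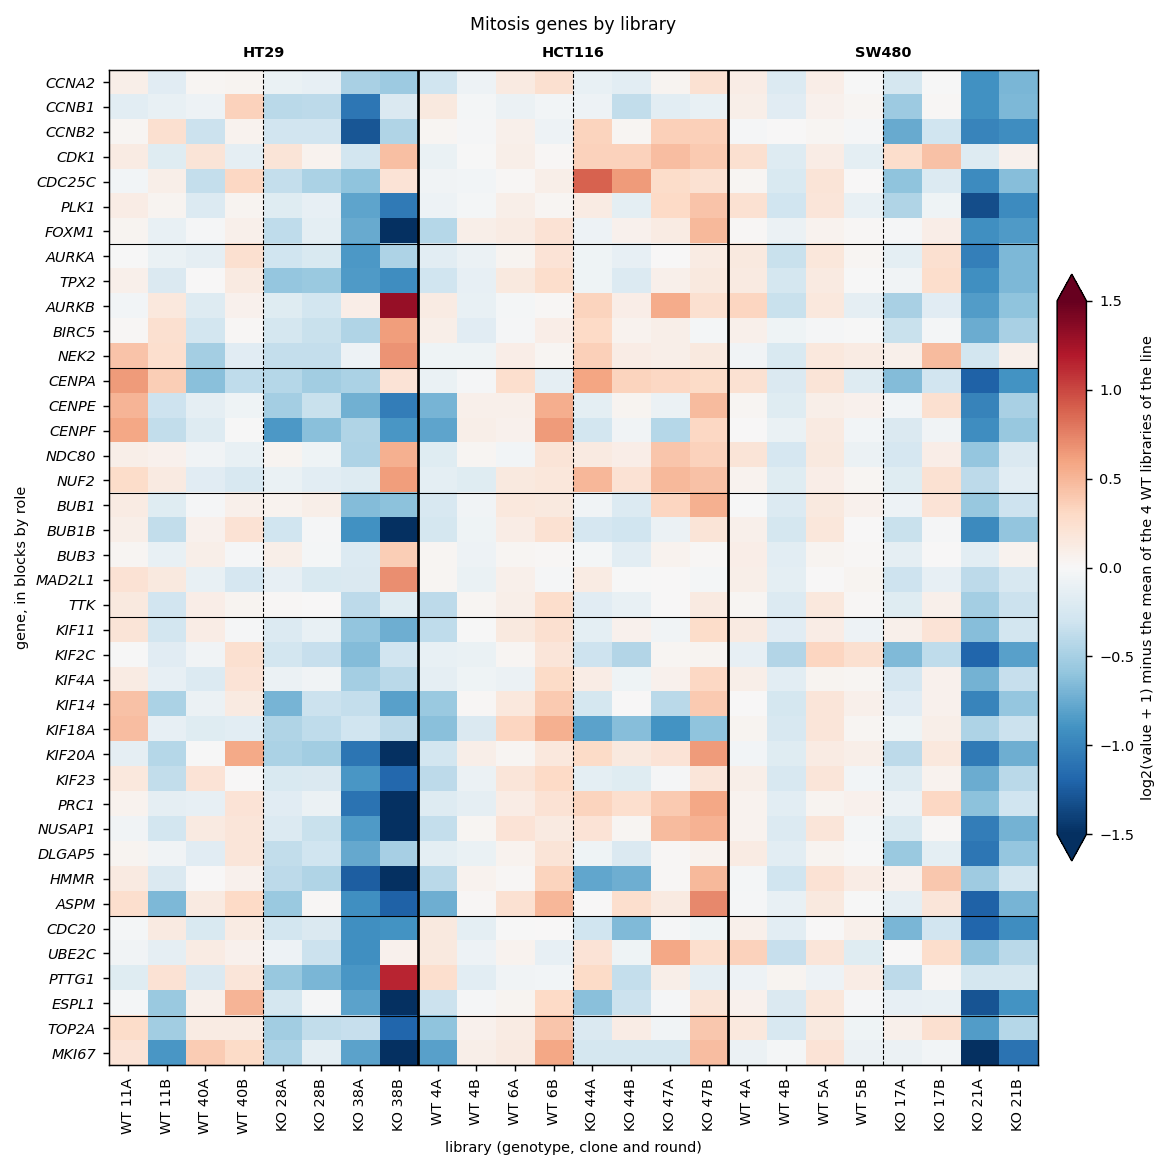
Log2(value + 1) of the 40 mitosis genes (rows, in blocks by role) in the 24 libraries (columns), minus the mean of the 4 WT libraries of the line, where blue is lower, red higher, and colors stop at 1.5 log2 units. The SW480 KO 21 and HT29 KO 38 columns are mostly blue, SW480 KO 17 and HCT116 KO are mixed, and HT29 KO 38B holds both the deepest blue and the deepest red of HT29.

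In SW480 most of the low values were those of KO 21. The median member lay 0.75 log2 units below the WT mean in KO 21, with all 40 members below it, and 0.07 below it in KO 17, with 25 members below it. When KO 21 alone was compared with WT, 36 members fell (90%), where 24.2% of all genes fell. When KO 17 alone was compared with WT, 4 members fell (10%), where 22.7% of all genes fell. These 4 were *CDC20*, *CDC25C*, *DLGAP5* and *CCNB2*. In KO 21, 34 members (85%) were lower in both libraries than in all 4 WT libraries (30.1% of all genes), and in KO 17 only 3 were (30.3% of all genes). The difference between the KO clones was itself tested. 27 members were lower in KO 21 than in KO 17 (12.7% of all genes), and between the WT clones 1 member differed (8.88%). Leaving out KO 17B or KO 21A lowered the count of 27, and each of these fits left 1 library in that clone. When limma treated clones as random effects, 4 of the 12 members called in SW480 KO cells were still called, and with the reads of each clone summed 3 were. The shares of all genes in these fits are not given here.

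The HT29 KO clones differed in degree. The median member was 0.27 log2 units below the WT mean in KO 28, with 36 members below it, and 0.64 below it in KO 38, with 31 below it. In library KO 38A by itself the median was −0.68 with 39 members below it. When KO 38 alone was compared with WT, 7 members fell (17.5%, against 1.74% of all genes), and when KO 28 alone was compared none did (1.53% of all genes). In KO 28, 12 members (30%) were lower in both libraries than in all 4 WT libraries, against 14.6% of all genes, and in KO 38 24 were (60%, against 16.3%). Between the KO clones, 8 members were lower in KO 38 (8.87% of all genes), namely *PRC1*, *BUB1B*, *HMMR*, *NUSAP1*, *KIF23*, *PLK1*, *BUB1* and *CDC20*. The count of 8 moved with the library left out. Fits without 1 library of a KO clone leave that clone with 1 library, and without KO 38A only KO 38B is left of KO 38. Without 1 WT library 2 or 4 members were called, for which the share of all genes is not given here. Between the WT clones 1 member, *CENPA*, differed (9.02% of all genes). It fell by 1.00 on the log2 scale from WT 11 to WT 40. Without KO 38B 4 members differed between the WT clones (23.8% of all genes), namely *CENPA*, *KIF20A*, *NEK2* and *NUF2*.

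The medians of the HCT116 KO clones lay on both sides of the WT mean, but between those of the WT clones. The median member was at −0.04 in KO 44 and at 0.12 in KO 47, and at −0.14 in WT 4 and 0.14 in WT 6. In KO 47, 13 members were higher in both libraries than in all 4 WT libraries (17.6% of all genes), and in KO 44 6 were (21.8%). 3 members, *HMMR*, *BUB1* and *KIF2C*, were higher in KO 47 than in KO 44 (3.6% of all genes), and 1 member, *KIF18A*, differed between the WT clones (2.61%). In HCT116 the rounds paired the libraries. With the round as a block, 18 members were higher in WT 6 than in WT 4 (9.71% of all genes) and 11 differed between the KO clones (21.5% of all genes), so that WT clones, too, differed in their mitosis genes. The block left the KO against WT counts of HCT116 at 1 lower and 3 higher.

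**Figure D4:**
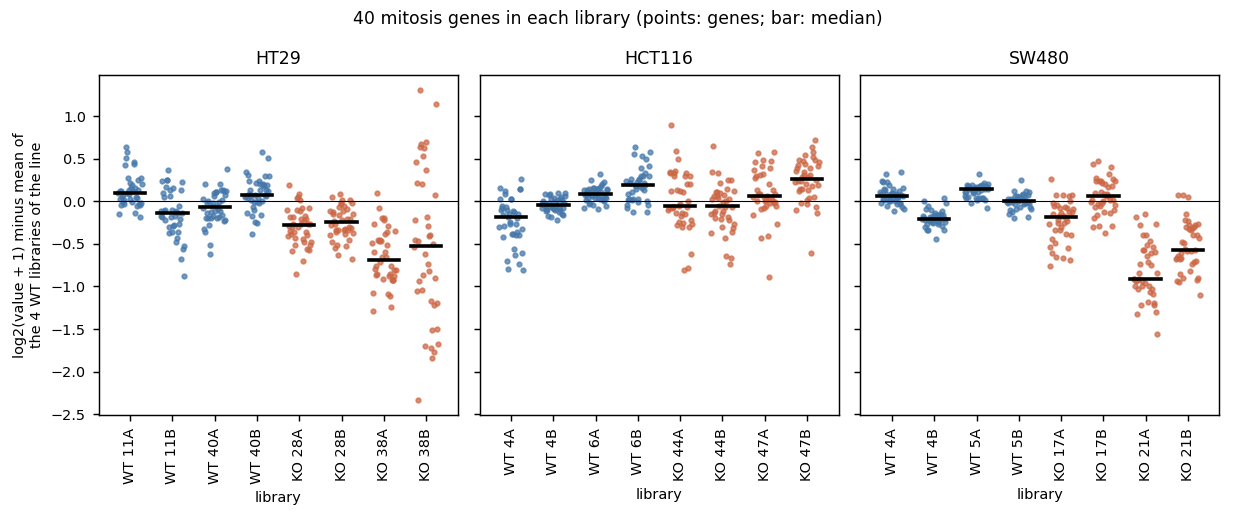
Log2(value + 1) minus the mean of the 4 WT libraries of the line for the 40 mitosis genes (points, WT blue and KO orange) in each library (x axis), with the median as a bar. The medians of SW480 KO 21A and 21B are −0.91 and −0.57 and those of KO 17A and 17B −0.19 and 0.06, while HT29 KO 38B spreads from −2.33 to 1.31.

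The genes of mitotic entry build and activate the kinase that starts mitosis. In HT29 none of the 7 was called, in HCT116 1 rose, and in SW480 4 fell. *CDK1* is the mitotic kinase. Its normalized counts in HT29 were 6387 and 5169 in WT 11, 6727 and 5329 in WT 40, 6703 and 6064 in KO 28 and 4858 and 8043 in KO 38. In HCT116 they were 5628 and 6033 in WT 4, 6398 and 6124 in WT 6, 7663 and 7658 in KO 44 and 8323 and 7942 in KO 47. In SW480 they were 5505 and 4080 in WT 4, 5043 and 4212 in WT 5, 5591 and 6337 in KO 17 and 4104 and 4898 in KO 21. All 4 HCT116 KO libraries exceeded all 4 WT libraries, and *CDK1* rose there (0.39 ± 0.08, adjusted p = 0.011), whereas the groups overlapped in HT29 (0.11 ± 0.18, adjusted p = 0.798 [without KO 38B −0.01 ± 0.16, adjusted p = 0.981]) and SW480 (0.14 ± 0.14, adjusted p = 0.423). *CDK1* was the member that kept furthest above the others in SW480 KO 17, at 0.35 log2 units over WT. *CCNB1* encodes cyclin B1, the activating partner of CDK1. In HT29 it read 10250 and 10544 in WT 11, 10800 and 14467 in WT 40, 8615 and 8696 in KO 28 and 5398 and 9779 in KO 38. In HCT116 it read 14086 and 12444 in WT 4, 11981 and 12328 in WT 6, 12046 and 9797 in KO 44 and 11365 and 11777 in KO 47. In SW480 it read 11881 and 9958 in WT 4, 11706 and 11451 in WT 5, 7720 and 11382 in KO 17 and 5968 and 7059 in KO 21. The HT29 groups did not overlap, yet the difference was not called (−0.52 ± 0.21, adjusted p = 0.268 [without KO 38B −0.62 ± 0.21, adjusted p = 0.174]), and neither was that in HCT116 (−0.18 ± 0.10, adjusted p = 0.242). In SW480 *CCNB1* fell (−0.52 ± 0.17, adjusted p = 0.0273), a call kept in 11 of 23 alternatives, although KO 17B lay within the WT range.

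*CCNB2*, the gene of the second B-type cyclin, fell in SW480 (−0.74 ± 0.13, adjusted p = 0.000992). Its SW480 counts were 5372 and 5479 in WT 4, 5586 and 5394 in WT 5, 3233 and 4434 in KO 17 and 2741 and 2864 in KO 21. Every KO library was below every WT library, and this held in both KO clones. Antisense and sense noncoding genes overlap the annotated span of *CCNB2*, the library kit does not mark strand, and whether their reads were counted for it was not tested. The *CCNB2* difference was −0.58 [without KO 38B −0.62] in HT29 and 0.27 in HCT116, neither of which was called. *CDC25C*, the phosphatase that activates CDK1, fell in SW480 as well (−0.60 ± 0.15, adjusted p = 0.0068). In HCT116 it was at 0.51 and was higher in each KO library than in each WT library, with an adjusted p of 0.0524.

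*PLK1* encodes Polo-like kinase 1, which acts in entry, spindle assembly and cytokinesis. HT29 libraries gave 6699 and 6384 in WT 11, 5383 and 6362 in WT 40, 5436 and 5681 in KO 28 and 3564 and 2975 in KO 38. HCT116 libraries gave 5858 and 6048 in WT 4, 6571 and 6297 in WT 6, 6745 and 5610 in KO 44 and 7594 and 8338 in KO 47. SW480 libraries gave 6476 and 4496 in WT 4, 6240 and 5124 in WT 5, 4050 and 5285 in KO 17 and 2202 and 2870 in KO 21. The KO 38 and KO 21 libraries were the lowest of their lines. *PLK1* fell in SW480 (−0.70 ± 0.25, adjusted p = 0.0421), a call kept in 9 of 23 alternatives and lost with the rounds as a block (adjusted p = 0.0548), with KO 21 below KO 17 (−0.88 ± 0.24, adjusted p = 0.0445), and was lower in HT29 KO 38 than in KO 28 (−0.77 ± 0.18, adjusted p = 0.0238 [without KO 38B −0.64 ± 0.16, adjusted p = 0.0174]). *FOXM1* encodes the transcription factor that activates the late wave. HT29 gave 3763 and 3381 in WT 11, 3605 and 3856 in WT 40, 2797 and 3297 in KO 28 and 2157 and 723 in KO 38. HCT116 gave 2196 and 3118 in WT 4, 3215 and 3416 in WT 6, 2795 and 3069 in KO 44 and 3217 and 4113 in KO 47. SW480 gave 6121 and 5678 in WT 4, 6248 and 6107 in WT 5, 5962 and 6457 in KO 17 and 3192 and 3338 in KO 21. In HT29 the KO libraries were below all WT libraries, with KO 38B far below the rest (−0.90 ± 0.42, adjusted p = 0.328 [without KO 38B −0.43 ± 0.16, adjusted p = 0.217]). In SW480 KO 21 fell away from KO 17 (−0.93 ± 0.07, adjusted p = 1.81e-07), which was the smallest adjusted p of any member between clones. *FOXM1* overlaps *ITFG2* and *RHNO1* on the other strand. *CCNA2*, the gene of cyclin A, was not called in any line (−0.31 [without KO 38B −0.24] in HT29, 0.00 in HCT116 and −0.46 in SW480).

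Aurora A builds spindle poles with its activator TPX2, and Aurora B corrects attachments as the kinase of the chromosomal passenger complex. *TPX2* was the 1 member called in HT29. Its counts were 11949 and 9743 in WT 11, 11356 and 12402 in WT 40, 7547 and 7721 in KO 28 and 6281 and 5935 in KO 38. The 4 KO libraries lay below the 4 WT libraries in both clones (−0.73 ± 0.15, adjusted p = 0.0419). The call was lost when any library other than KO 38B was left out, and without KO 38B it stood (−0.66 ± 0.14, adjusted p = 0.0494). HCT116 libraries held 8904 and 10051 in WT 4, 12083 and 13121 in WT 6, 10407 and 9501 in KO 44 and 11503 and 12073 in KO 47. SW480 libraries held 19986 and 15196 in WT 4, 20069 and 18098 in WT 5, 17525 and 21944 in KO 17 and 9648 and 11442 in KO 21. The HCT116 groups overlapped (−0.01 ± 0.13, adjusted p = 0.967), and in SW480 the KO 17B library was the highest of all 8 and KO 21 the lowest (−0.34 ± 0.24, adjusted p = 0.256). 

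*AURKB* encodes Aurora B. HT29 libraries held 1916 and 2200 in WT 11, 1720 and 2061 in WT 40, 1732 and 1628 in KO 28 and 2101 and 4859 in KO 38. In HCT116 the counts were 2777 and 2366 in WT 4, 2488 and 2581 in WT 6, 3218 and 2739 in KO 44 and 3760 and 3012 in KO 47. In SW480 the counts were 7013 and 4454 in WT 4, 6261 and 5143 in WT 5, 4017 and 5022 in KO 17 and 3139 and 3692 in KO 21. In HT29 the short *AURKB* transcript was high in KO 38B alone. *AURKB* fell in SW480 (−0.53 ± 0.17, adjusted p = 0.0253), where KO 17B overlapped WT, and its HCT116 difference was not called (0.31 ± 0.11, adjusted p = 0.0899). *BIRC5* encodes survivin, another subunit of the passenger complex. In HT29 it stood at 4783 and 5586 in WT 11, 3892 and 4755 in WT 40, 3917 and 3737 in KO 28 and 3449 and 7311 in KO 38. In HCT116 it stood at 8870 and 7436 in WT 4, 8259 and 8985 in WT 6, 10272 and 8704 in KO 44 and 8867 and 8217 in KO 47. In SW480 it stood at 5471 and 4961 in WT 4, 5098 and 5164 in WT 5, 4100 and 5061 in KO 17 and 3096 and 3705 in KO 21. It was high in HT29 KO 38B like *AURKB*, overlapped between groups in HCT116 (0.10 ± 0.10, adjusted p = 0.537), and fell in SW480 (−0.40 ± 0.13, adjusted p = 0.0254). *AURKA* was below WT in all 4 HT29 KO libraries without being called (−0.47 ± 0.18, adjusted p = 0.232 [without KO 38B −0.46 ± 0.18, adjusted p = 0.243]), and in SW480 it was lower in KO 21 than in KO 17 (−0.90 ± 0.21, adjusted p = 0.0213). *NEK2*, a centrosome kinase gene, was called in no line (−0.03 [without KO 38B −0.26], 0.17 and 0.08).

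Centromere and kinetochore genes encode the platform that binds spindle microtubules. In SW480 2 of the 5 fell, in HCT116 1 rose, and in HT29 none was called. *CENPA* encodes the histone variant that marks centromeres. In HT29 it amounted to 1884 and 1561 in WT 11, 787 and 932 in WT 40, 899 and 847 in KO 28 and 876 and 1399 in KO 38. In HCT116 it amounted to 679.8 and 720.2 in WT 4, 868 and 665 in WT 6, 1100 and 917 in KO 44 and 903 and 887 in KO 47. In SW480 it amounted to 2963 and 2170 in WT 4, 2894 and 2208 in WT 5, 1613 and 2068 in KO 17 and 1090 and 1360 in KO 21. In HT29 the WT clones differed more from each other than KO from WT (−0.30 ± 0.31, adjusted p = 0.646 [without KO 38B −0.47 ± 0.30, adjusted p = 0.459]). In SW480 all KO libraries were below all WT libraries and *CENPA* fell (−0.76 ± 0.19, adjusted p = 0.00752), while in HCT116 all KO libraries were above WT with an adjusted p of 0.0665. *SLC35F6* overlaps *CENPA* on the same strand. *CENPF* encodes a large kinetochore protein. HT29 counts were 9658 and 4995 in WT 11, 5657 and 6425 in WT 40, 3569 and 4193 in KO 28 and 4725 and 3541 in KO 38. HCT116 counts were 3472 and 6390 in WT 4, 6286 and 9314 in WT 6, 4952 and 5787 in KO 44 and 4448 and 7449 in KO 47. SW480 counts were 10969 and 10137 in WT 4, 11976 and 10624 in WT 5, 9353 and 10518 in KO 17 and 5700 and 7377 in KO 21. All HT29 KO libraries were below WT (−0.70 ± 0.22, adjusted p = 0.147 [without KO 38B −0.65 ± 0.23, adjusted p = 0.198]). *CENPF* fell in SW480 (−0.44 ± 0.17, adjusted p = 0.0493), a call kept in 8 of 23 alternatives and lost with the rounds as a block (adjusted p = 0.0668). Its SW480 KO 17B value lay within the WT range, and the HCT116 libraries spread too widely to separate (−0.11 ± 0.28, adjusted p = 0.822).

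*NUF2*, a subunit gene of the NDC80 complex that grips microtubules, rose in HCT116 (0.41 ± 0.12, adjusted p = 0.0412). Its HCT116 counts were 1513 and 1479 in WT 4, 1860 and 1892 in WT 6, 2366 and 1940 in KO 44 and 2351 and 2271 in KO 47. KO exceeded WT in every library. In the other lines it lay at 0.04 [without KO 38B −0.15] in HT29 and −0.12 in SW480. Its partner *NDC80* was at 0.01 [without KO 38B −0.16], 0.25 and −0.24 in HT29, HCT116 and SW480, with no call. *CENPE*, a kinetochore motor gene, was below WT in each HT29 KO library (−0.65 ± 0.22, adjusted p = 0.19 [without KO 38B −0.52 ± 0.21, adjusted p = 0.244]).

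The spindle assembly checkpoint delays anaphase until chromosomes are attached. 1 of its 5 genes was called in a KO against WT comparison. *BUB1* encodes a checkpoint kinase. In HT29 its counts were 4732 and 3813 in WT 11, 4282 and 4569 in WT 40, 4499 and 4612 in KO 28 and 2760 and 2824 in KO 38. HCT116 had 4441 and 5057 in WT 4, 5842 and 5790 in WT 6, 5049 and 4541 in KO 44 and 6540 and 7625 in KO 47. SW480 had 8093 and 7016 in WT 4, 8994 and 8448 in WT 5, 7672 and 9372 in KO 17 and 5444 and 6549 in KO 21. *BUB1* was lower in HT29 KO 38 than in KO 28 (−0.71 ± 0.17, adjusted p = 0.0298 [without KO 38B −0.72 ± 0.17, adjusted p = 0.0125]), higher in HCT116 KO 47 than in KO 44 (0.56 ± 0.12, adjusted p = 0.0212), and lower in SW480 KO 21 than in KO 17 (−0.51 ± 0.11, adjusted p = 0.0042), with no call between KO and WT. *BUB3*, which encodes another checkpoint protein, gave small differences. HT29 had 8110 and 7399 in WT 11, 8490 and 7897 in WT 40, 8446 and 7782 in KO 28 and 6923 and 10263 in KO 38. Its HCT116 counts came to 11688 and 10894 in WT 4, 11763 and 11662 in WT 6, 11258 and 10325 in KO 44 and 11944 and 11634 in KO 47. Its SW480 counts came to 8399 and 7009 in WT 4, 8025 and 7934 in WT 5, 7118 and 7863 in KO 17 and 7028 and 8086 in KO 21. The groups overlapped in every line, with differences of 0.05 [without KO 38B −0.05], −0.03 and −0.06. *MAD2L1*, the gene of MAD2, fell in SW480 (−0.27 ± 0.08, adjusted p = 0.0165). *BUB1B* was at −0.73 [without KO 38B −0.41] and *TTK* at −0.14 [without KO 38B −0.12] in HT29, and at −0.48 and −0.23 in SW480, with no call. *BUB1B* shares its locus with *PAK6* and a readthrough gene on the same strand.

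The kinesins and spindle proteins move chromosomes and build the midzone. All 12 lay below 0 in HT29 and in SW480, with medians of −0.58 (−0.46 without KO 38B) and −0.37. None was called in HT29 and 2 fell in SW480, namely *KIF2C* and *DLGAP5*. *KIF20A* encodes the midzone motor of cytokinesis. In HT29 it was at 2536 and 2061 in WT 11, 2768 and 4141 in WT 40, 1998 and 1934 in KO 28 and 1306 and 843 in KO 38. In HCT116 it was at 2789 and 3586 in WT 4, 3425 and 3739 in WT 6, 4117 and 3720 in KO 44 and 3865 and 5246 in KO 47. In SW480 it was at 5560 and 5041 in WT 4, 6234 and 6077 in WT 5, 4356 and 6389 in KO 17 and 2734 and 3434 in KO 21. HT29 KO libraries were below all WT libraries (−0.95 ± 0.32, adjusted p = 0.174 [without KO 38B −0.70 ± 0.26, adjusted p = 0.212]), the HCT116 difference was 0.32 and the SW480 difference −0.51, neither of them called. *CDC23* and *BRD8* overlap *KIF20A* on the other strand. *PRC1* encodes the protein that bundles midzone microtubules. The HT29 counts were 7377 and 6500 in WT 11, 6566 and 8203 in WT 40, 6321 and 6704 in KO 28 and 3309 and 1995 in KO 38. The HCT116 counts were 4411 and 4612 in WT 4, 5435 and 5877 in WT 6, 6360 and 6007 in KO 44 and 6620 and 7527 in KO 47. The SW480 counts were 5848 and 5071 in WT 4, 5785 and 5898 in WT 5, 5322 and 7014 in KO 17 and 3696 and 4570 in KO 21. In HT29 the low values were those of KO 38, which lay below KO 28 (−1.34 ± 0.26, adjusted p = 0.0123), and remained so without KO 38B (−0.98 ± 0.18, adjusted p = 0.00255). In HCT116 *PRC1* rose, with all KO above all WT libraries (0.39 ± 0.12, adjusted p = 0.0453), a call that only the fit without WT 6B kept when 1 library was left out. An antisense gene overlaps *PRC1*.

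*KIF18A*, a motor gene for chromosome alignment, was the member that fell in HCT116 (−0.74 ± 0.22, adjusted p = 0.0452). Its HCT116 counts were 1661 and 2209 in WT 4, 3205 and 3719 in WT 6, 1470 and 1651 in KO 44 and 1383 and 1692 in KO 47. The groups overlapped, because WT 4A lay within the KO range, and WT 6 exceeded WT 4 (0.85 ± 0.17, adjusted p = 0.025). Without WT 4A the call held, and without any other library of HCT116 it was lost. *HMMR* encodes a spindle-associated hyaluronan receptor. In HT29 the counts were 3468 and 2728 in WT 11, 3179 and 3311 in WT 40, 2410 and 2308 in KO 28 and 1336 and 924 in KO 38. HCT116 clones gave 1780 and 2437 in WT 4, 2376 and 2962 in WT 6, 1371 and 1413 in KO 44 and 2380 and 3298 in KO 47. SW480 clones gave 5497 and 4582 in WT 4, 6518 and 6099 in WT 5, 5887 and 7461 in KO 17 and 3889 and 4641 in KO 21. In HT29 all KO libraries were below WT (−0.96 ± 0.30, adjusted p = 0.149 [without KO 38B −0.69 ± 0.22, adjusted p = 0.15]). In HCT116 the KO clones fell on either side of the WT mean, with KO 47 higher than KO 44 (1.01 ± 0.19, adjusted p = 0.012), and KO 47A lay within the WT range. *KIF2C*, the gene of the microtubule depolymerase MCAK, fell in SW480 (−0.76 ± 0.20, adjusted p = 0.0103). The SW480 counts were 4442 and 3539 in WT 4, 6007 and 5709 in WT 5, 3037 and 3709 in KO 17 and 2120 and 2743 in KO 21. The WT clones differed too, with WT 5 above WT 4 (0.56 ± 0.15, adjusted p = 0.0461), so that KO 17B reached into the range of WT 4. *DLGAP5*, a spindle assembly gene, fell in SW480 as well (−0.59 ± 0.17, adjusted p = 0.0147). *ASPM*, *KIF11*, *KIF14*, *KIF23*, *KIF4A* and *NUSAP1* were called in no line, with HT29 differences from −0.73 [without KO 38B −0.47] for *NUSAP1* to −0.27 [without KO 38B −0.22] for *KIF4A*.

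The genes of chromatid separation release sister chromatids at anaphase. 1 of the 4 fell in SW480. *CDC20* encodes the activator of the anaphase-promoting complex. In HT29 it gave 7438 and 8357 in WT 11, 6506 and 8324 in WT 40, 6317 and 6573 in KO 28 and 4029 and 4084 in KO 38. In HCT116 it gave 15527 and 12675 in WT 4, 14039 and 14090 in WT 6, 11425 and 8866 in KO 44 and 13875 and 13453 in KO 47. In SW480 it gave 10375 and 8827 in WT 4, 9936 and 10398 in WT 5, 6131 and 8055 in KO 17 and 4326 and 5184 in KO 21. Each SW480 KO library was below each WT library (−0.77 ± 0.16, adjusted p = 0.00316), and the fall was present in KO 17 alone (−0.49 ± 0.11, adjusted p = 0.00642) and in KO 21 alone (−1.06 ± 0.10, adjusted p = 1.3e-05). In HT29 both KO 38 libraries were below WT while KO 28A and KO 28B were close to the lowest WT library (−0.57 ± 0.21, adjusted p = 0.205 [without KO 38B −0.47 ± 0.19, adjusted p = 0.266]), and in HCT116 KO 44B was the lowest of 8 (−0.26 ± 0.14, adjusted p = 0.232). *UBE2C*, *PTTG1*, the gene of securin, and *ESPL1*, the gene of separase, were called in no line. Their SW480 differences were −0.18, −0.23 and −0.61.

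Of the chromosome structure genes, *TOP2A* encodes topoisomerase IIα and *MKI67* the Ki-67 antigen used to count proliferating cells. In HT29 *TOP2A* had 20233 and 11625 in WT 11, 18215 and 18248 in WT 40, 11680 and 12946 in KO 28 and 13150 and 7315 in KO 38. In HCT116 *TOP2A* had 4197 and 6671 in WT 4, 6981 and 8507 in WT 6, 5500 and 6925 in KO 44 and 6149 and 8479 in KO 47. In SW480 *TOP2A* had 23023 and 17400 in WT 4, 22798 and 19687 in WT 5, 21681 and 24321 in KO 17 and 11510 and 15328 in KO 21. It was called in no line (−0.61 [without KO 38B −0.41], 0.06 and −0.24). In HT29 *MKI67* had 13114 and 6218 in WT 11, 14779 and 13934 in WT 40, 8198 and 10249 in KO 28 and 6530 and 3565 in KO 38. In HCT116 *MKI67* had 6574 and 12287 in WT 4, 12685 and 17230 in WT 6, 9577 and 9618 in KO 44 and 9597 and 15834 in KO 47. In SW480 *MKI67* had 14104 and 14797 in WT 4, 17350 and 14146 in WT 5, 14107 and 14626 in KO 17 and 5117 and 6996 in KO 21. This long transcript was lowest in WT in the libraries HT29 WT 11B and HCT116 WT 4A, which had low values of long transcripts in general. In SW480, KO 17 did not leave the WT range and KO 21 lay below KO 17 (−1.26 ± 0.14, adjusted p = 0.000175), the largest difference of any member between SW480 KO clones, while KO against WT was not called (−0.70 ± 0.32, adjusted p = 0.0989).

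**Figure D5:**
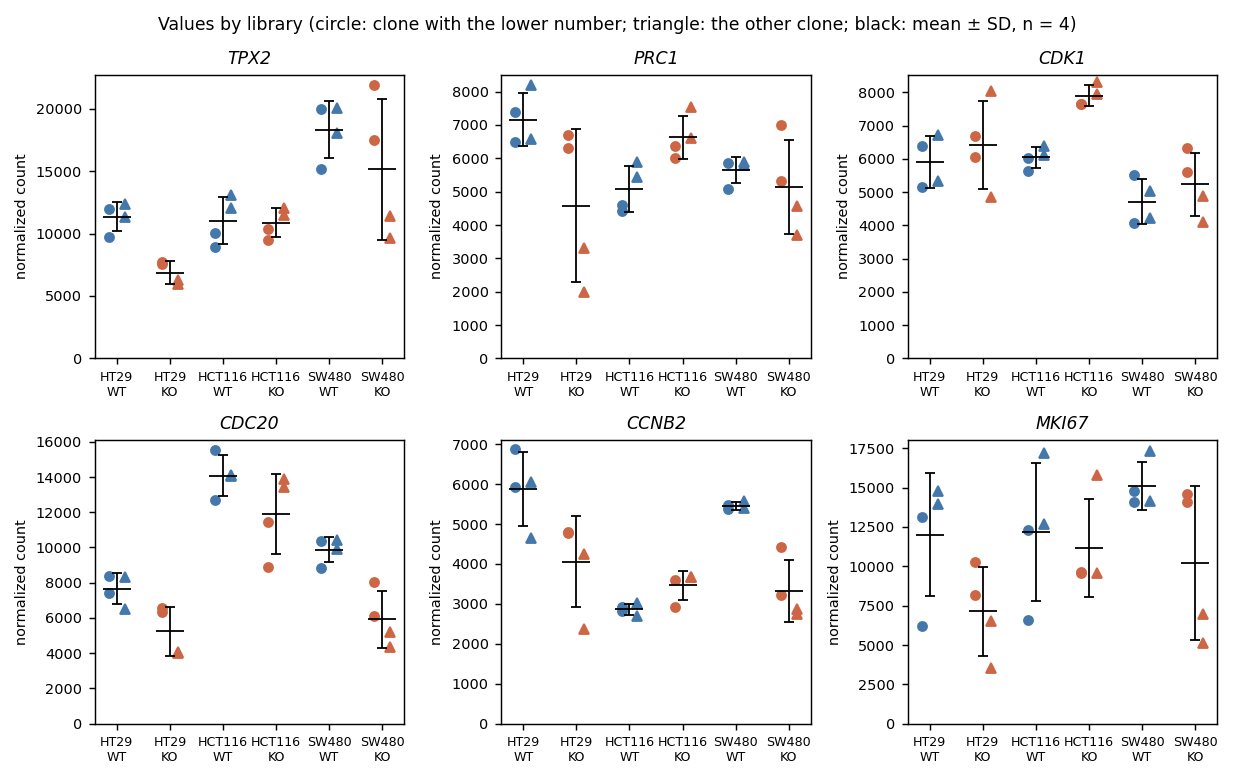
Normalized counts of *TPX2*, *PRC1*, *CDK1*, *CDC20*, *CCNB2* and *MKI67* in each library by line and genotype (WT blue, KO orange), with circles for the clone of the lower number, triangles for the other clone and black marks for mean ± SD (n = 4). *CDK1* KO points of HCT116 lie above all WT points, *CDC20* and *CCNB2* KO points of SW480 below all WT points, and *MKI67* splits by clone in SW480 KO cells.

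To find out whether the members responded differently in the 3 lines, the KO effects were compared in 1 model of all 24 libraries. 3 members had a lower effect in HT29 than in HCT116 (2.99% of 18609 genes), namely *KIF20A* (−1.27 ± 0.36, adjusted p = 0.032 [without KO 38B −1.02 ± 0.32, adjusted p = 0.0539]), *PRC1* (−1.19 ± 0.36, adjusted p = 0.049 [without KO 38B −0.84 ± 0.27, adjusted p = 0.0604]) and *CCNB2* (−0.85 ± 0.25, adjusted p = 0.0431 [without KO 38B −0.89 ± 0.26, adjusted p = 0.0386]). With the rounds as a block *KIF20A* and *CCNB2* were called (2.83% of all genes) and *PRC1* was not (−1.19 ± 0.37, adjusted p = 0.0593). Without HT29 KO 38B the number was again 3 (3.31% of all genes), with *CCNB2* among them beside *CDC25C* and *PTTG1*, while *KIF20A* and *PRC1* were not called. Leaving out other libraries gave 0 to 4 members, with 0 without HT29 KO 38A, HT29 WT 40B or HCT116 KO 44A, WT 4A or WT 6A. None differed between HT29 and SW480 (15.8% of all genes), where 2 members (*HMMR* and *AURKB*) had an unadjusted p under 0.05 in limma, as did 27.8% of all genes, and edgeR called none either. 3 members had a higher effect in HCT116 than in SW480 (5.94% of all genes), namely *CENPA* (1.14 ± 0.33, adjusted p = 0.0224), *CDC25C* (1.11 ± 0.26, adjusted p = 0.00569) and *CCNB2* (1.01 ± 0.25, adjusted p = 0.00827). Without HT29 KO 38B 6 members were called (7.43% of all genes), with *NUSAP1*, *PLK1* and *AURKB* added, and without SW480 KO 17B 5 were. For *CENPA* and *CDC25C* the KO libraries lay above all WT libraries in HCT116, and for *CENPA* below all of them in SW480.

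4 further gene lists were read alongside. Of 70 other mitosis genes, none was called in HT29, 1 fell and 4 rose in HCT116, and 15 fell and 4 rose in SW480, with medians of −0.25, 0.03 and −0.21. The 15 falls in SW480 were close to the share of all genes (22.1%), of which 26.1% rose. In HCT116 5.93% of all genes fell and 8.05% rose. 45 of the 70 were lower in SW480 KO 21 than in KO 17 (12.7% of all genes), and none was higher. In SW480 *CDC25A*, a phosphatase gene of the cell cycle (−0.56 ± 0.10, adjusted p = 0.00103), *WEE1*, the gene of the kinase that restrains CDK1 (−0.39 ± 0.08, adjusted p = 0.00309), and *CKS1B* (−0.37 ± 0.08, adjusted p = 0.00349) fell, while *CDC27*, a subunit gene of the anaphase-promoting complex, rose (0.43 ± 0.09, adjusted p = 0.00206). Of 20 regulators of mitotic transcription, 1 fell in HT29, 2 in HCT116 and 5 in SW480 (0.476%, 5.93% and 22.1% of all genes). None rose, where 2.08%, 8.05% and 26.1% of all genes did. The 5 falls in SW480 were close to the share of all genes. *MYBL2*, the gene of B-MYB, fell in HT29 (−0.63 ± 0.13, adjusted p = 0.0472 [without KO 38B −0.61 ± 0.13, adjusted p = 0.0532]), a call that was lost without KO 38B, and fell in SW480 (−1.05 ± 0.22, adjusted p = 0.00327). *TFDP2* (−0.53 ± 0.08, adjusted p = 0.000334), *E2F2* (−0.59 ± 0.10, adjusted p = 0.00079) and *NFYB* (−0.29 ± 0.06, adjusted p = 0.00344) fell in SW480.

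Of 30 G1/S genes, none was called in HT29, 4 fell and 1 rose in HCT116 (5.93% and 8.05% of all genes), and 14 fell and 1 rose in SW480 (22.1% and 26.1%). *MCM2* and *MCM7*, genes of the replicative helicase, fell in SW480 (−0.54 ± 0.06, adjusted p = 2.31e-05 and −0.45 ± 0.07, adjusted p = 0.000282), as did the G1 kinase gene *CDK4* (−0.46 ± 0.07, adjusted p = 0.000264), and *CCNE1*, the gene of cyclin E1, fell in HCT116 (−0.94 ± 0.11, adjusted p = 0.000342). Of 14 cell cycle brakes, none was called in HT29, 1 fell and 4 rose in HCT116, and 2 fell and 7 rose in SW480, beside the same shares of all genes. The inhibitor genes *CDKN2B* (2.31 ± 0.14, adjusted p = 4.52e-07) and *CDKN2A* (1.45 ± 0.17, adjusted p = 9.03e-05) and the antiproliferative gene *TOB1* (0.91 ± 0.10, adjusted p = 4.75e-05) rose in SW480, whereas *CDKN1C*, another inhibitor gene, fell (−2.36 ± 0.21, adjusted p = 6.93e-06). In HT29, where none of the 14 was called at an adjusted p under 0.05, 6 had an unadjusted p under 0.05 in limma, where 16.2% of all genes did in either direction. All 6 lay above 0. The medians of the members, −0.47 in HT29 and −0.40 in SW480, were further below 0 than those of the G1/S genes, −0.19 and −0.21. Without KO 38B the HT29 medians were −0.43 and −0.13, and the difference between lists was not tested.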

How the data were processed

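Poly(A) RNA of 24 libraries had been captured on oligo-dT and prepared with a TruSeq kit that does not mark strand. Per the study's methods, reads were aligned to GRCh37 with STAR 2.7.5b and counted per gene with featureCounts 2.0.1. The signal values the authors deposited are counts divided by a DESeq2 (2.11.40.6) size factor per library, and every value of the 24 libraries gave whole reads at a tolerance of 0.01. Deposited tables of the authors' own KO against WT comparisons hold fold changes and p-values and were not used. Genes reaching 10 in 4 or more libraries were tested on log2(value + 1) with limma 3.58.1 (R 4.3.3, trend and robust), adjusted by Benjamini-Hochberg over all genes tested, and called at 0.05. edgeR 4.0.16 and DESeq2 1.42.0 were run on the recovered reads as alternatives, and the scripts were tested on simulated data. The members and gene lists were chosen with earlier results of these data known. All 40 members are accounted for by role, with values in each library for 13 chosen members. Library values are also given for 3 members of each line, picked from the KO against WT fits reported here. These had the largest absolute difference among called members, or the smallest adjusted p where fewer than 3 were called. Same-numbered rounds deviated together in HCT116 (correlations 0.182 to 0.374 in 6 of 6 pairs) but not in HT29 (2 of 6 over 0.1) or SW480 (1 of 6). The annotated span of 22 of 40 members, introns included, overlaps that of another gene on either strand. Whether reads of those genes were counted for the members was not tested. Counting error is small beside the spread between libraries at 22297049 to 29068378 reads.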

Additional observations from a re-analysis of the deposited data

Results flagged for a closer look

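Of 120 groups of 4 libraries, 10 held a library whose gap to its nearest neighbour was above Dixon's critical share of the group's range, where chance gives about 1 in 20. In HT29 KO, library 38B stood above the others in 4 members, with normalized counts of 4859 for *AURKB*, 7311 for *BIRC5*, 2222 for *NUF2* and 1399 for *CENPA*. This library also held low values of long transcripts, and the part of that in these values was not tested. In HT29 WT, *CCNB1* was high in 40B at 14470 and *KIF18A* in 11A at 1842. In HCT116, *BUB3* was low in WT 4B at 10890, *MKI67* was high in KO 47B at 15830 and *CENPA* was high in KO 44A at 1100. In SW480, *PRC1* was low in WT 4B at 5071.

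6 effects of KO differed between lines in the limma model of all 24 libraries. 3 were lower in HT29 than in HCT116, where 2.99% of all genes were. 3 were higher in HCT116 than in SW480, where 5.94% of all genes were. The effect in HT29 minus that in HCT116 was −1.27 for *KIF20A*, −1.19 for *PRC1* and −0.85 for *CCNB2* on the log2 scale. With the rounds as a block the *PRC1* difference was not called (adjusted p = 0.0593), and without HT29 KO 38B those of *KIF20A* and *PRC1* were not (adjusted p = 0.0539 and 0.0604). The effect in HCT116 minus that in SW480 was 1.14 for *CENPA*, 1.11 for *CDC25C* and 1.01 for *CCNB2*.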

How the results depend on the processing

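No member rose in HT29 or SW480 under any setting run. Of 1380 alternative values of named members 1236 kept their side of the threshold, 25 passed it and 119 lost it. None changed sign where either value was called. Values called in neither fit count as kept even if their sign changed, as for *CDK1*, *BUB3* and *NUF2* in HT29 without KO 38B. In HT29 the 1 member lower in KO became 0 with the replicate block, with no filter, with at least 10 in every library, with the clone as a random effect, with clone reads summed, without clone 38, 11 or 40, and with an absolute log2 fold change over 1, but 3 with DESeq2 and 7 without clone 28. Its median of −0.47 became −0.64 without clone 28 and −0.27 without clone 38. In HCT116 the 1 lower became 0 with the random effect, with summed reads, without clone 44 or 6 and with the fold threshold, and 2 without clone 47. The 3 higher became 1 with upper quartile scaling, the random effect or without clone 44, 0 with summed reads, without clone 4 or with the fold threshold, and 5 with DESeq2. In SW480 the 12 lower became 4 with the random effect or without clone 21, 3 with summed reads or without clone 5, 7 without clone 4, 36 without clone 17 and 0 with the fold threshold, and the median of −0.40 became −0.75 without clone 17 and −0.072 without clone 21. Between WT clones, the 1 member of HT29 became 0 with upper quartile scaling, the replicate block, a pseudocount of 0.1, no filter or at least 10 in every library, and the 1 of SW480 became 0 with edgeR, TMM, upper quartile scaling, the replicate block, a pseudocount of 0.1 or no filter. In HCT116 the replicate block gave 18 between WT clones and 11 between KO clones, and no filter gave 7 in each. No filter gave 16 between SW480 KO clones and 0 for HT29 against HCT116. The replicate block changed no other count by over 1.5 times, although in SW480 *PLK1* and *CENPF* lost their call and *PTTG1* gained one (11 called), and in HT29 against HCT116 *PRC1* lost its call.

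Leaving out 1 library at a time gave 0 to 1 lower in HT29, 0 to 1 lower and 1 to 3 higher in HCT116, and 7 to 29 lower in SW480, with medians of −0.54 to −0.35, −0.02 to 0.13 and −0.56 to −0.22. Between WT clones it gave 0 to 4 in HT29, 0 to 1 in HCT116 and 0 to 1 in SW480, and between KO clones 0 to 24, 0 to 2 and 12 to 32. It gave 0 to 4 for HT29 against HCT116 and 2 to 6 for HCT116 against SW480. Fits between clones without a library of 1 of them leave that clone with 1 library, and the shares of all genes are not given for these counts. The causes were not tested.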
